A study of Mus musculus with 6 samples.

Results

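The testis niche growth factor ligands described here are 10 genes: *Gdnf*, *Fgf2*, *Fgf8*, *Fgf9*, *Kitl*, *Csf1*, *Cxcl12*, *Wnt6*, *Nrg1* and *Bmp4*. They were chosen by gene symbol and not by a rule on their measured values, though earlier results of these data were known. All 10 were found among the 53657 gene names of the count files. The RNA came from testicular cells of 6 adult mice, 3 labelled wild type (WT) and 3 labelled as heterozygous for the *Hras* G12V mutation (MUT), collected 3 months after tamoxifen. Mice of both groups carried *Gfra1-creERT2*, a tamoxifen-activated Cre recombinase under *Gfra1*, together with a Cre-dependent tdTomato reporter, and both received a double course of tamoxifen. The MUT mice also carried the flox-and-replace allele *FR-Hras G12V*, in which Cre removes a wild-type copy of *Hras* so that the G12V copy is read from the endogenous promoter, and the WT mice were littermates without that allele. Cells bright for the surface protein MCAM and positive for tdTomato were sorted to enrich undifferentiated spermatogonia, the germ cell pool that contains the spermatogonial stem cells. A tdTomato-positive cell need not have recombined *Hras*, so a MUT sample may hold some cells without the mutation. From variant calling on the reads of these samples, the study reported that most of the sorted MUT cells carried it.

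In the adult testis, spermatogonial stem cells sit at the base of the seminiferous tubule and receive signals from Sertoli cells, peritubular myoid cells, Leydig cells, macrophages and vessels. GDNF and the FGFs are known for supporting self-renewal of these cells, CXCL12 for attracting and holding them, CSF1 and WNT6 for further support, and KIT ligand, BMP4 and NRG1 for acting on differentiating or proliferating spermatogonia. The receptors of GDNF, FGFs, KIT ligand, CSF1 and NRG1 include tyrosine kinases that signal through Ras proteins, which places HRAS downstream of many of these ligands. The comparison of MUT with WT asked whether transcripts of the ligands differed in sorted cells that carried an activated HRAS.

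Libraries were of similar depth, with 22729292 to 23550433 fragments counted on genes per sample, and 3 counts, taken as the floor set by counting error, equalled 0.127 to 0.132 CPM (counts scaled to the size of the library). The label of the cells was checked against germ line markers. Their list includes *Mcam* (559 to 707 CPM), the gene of a protein used in the sort, so that gene is no independent check. The 2 highest of the 10 spermatogonial markers were *Uchl1*, at a mean of 435 FPKM (CPM divided by the exon length in kilobases), and *Dazl*, at 305 FPKM. The lowest of the list were *Id4*, at 8.09 FPKM, and *Nanos2*, at 2.88 FPKM. The summed level of the list was 3483 to 3859 CPM in WT and 3474 to 3898 CPM in MUT. Markers of other cell types were detected in every library as well. The 6 macrophage markers, led by the complement genes *C1qa* (mean 128 FPKM) and *C1qb* (mean 123 FPKM), summed to 435 to 673 CPM in WT and 380 to 498 CPM in MUT. The 6 spermatid markers, led by the protamines *Prm2* (mean 478 FPKM) and *Prm1* (mean 352 FPKM), summed to 865 to 1471 CPM in WT and 597 to 1143 CPM in MUT. The 5 stromal markers, led by *Dcn* (mean 23.8 FPKM) and *Col1a1* (mean 15.8 FPKM), summed to 249 to 369 CPM in WT and 300 to 369 CPM in MUT. *Hras*, the targeted gene, had 1300, 1407 and 1542 counts in WT and 1600, 1594 and 1426 counts in MUT, and counts of the whole gene do not tell its alleles apart. Its level overlapped between the groups (log2 fold change 0.14, SE 0.083, adjusted p = 0.998 by the quasi-likelihood test of edgeR, Benjamini-Hochberg over all genes).

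All 10 ligand genes were detected in every sample, at low levels, and none differed between MUT and WT past the threshold. The highest was *Cxcl12* and the lowest per exon length was *Nrg1*, and no ligand reached the median of the 19656 genes tested, 3.90 FPKM. At an adjusted p under 0.1, edgeR called 0 of the 10 ligands, where it called 0.0102% of all genes tested, and DESeq2 and limma voom also called 0. At an unadjusted p under 0.05 there was 1 ligand, *Bmp4*, which was lower in MUT, and the share over all genes tested was 2.78%. *Bmp4* was also the 1 ligand whose MUT samples all lay below the WT samples, which held for 3.00% of all genes tested. For 0 of the 10 ligands did all MUT samples lie above the WT samples, against 4.69% of all genes tested. The median log2 fold change of the ligands was -0.04, with 4 above and 6 below 0, and that of all genes tested was 0.01. Each sample is RNA of a sorted cell mixture, so that fewer cells of a type and less RNA per cell cannot be told apart.

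**Figure D1:**
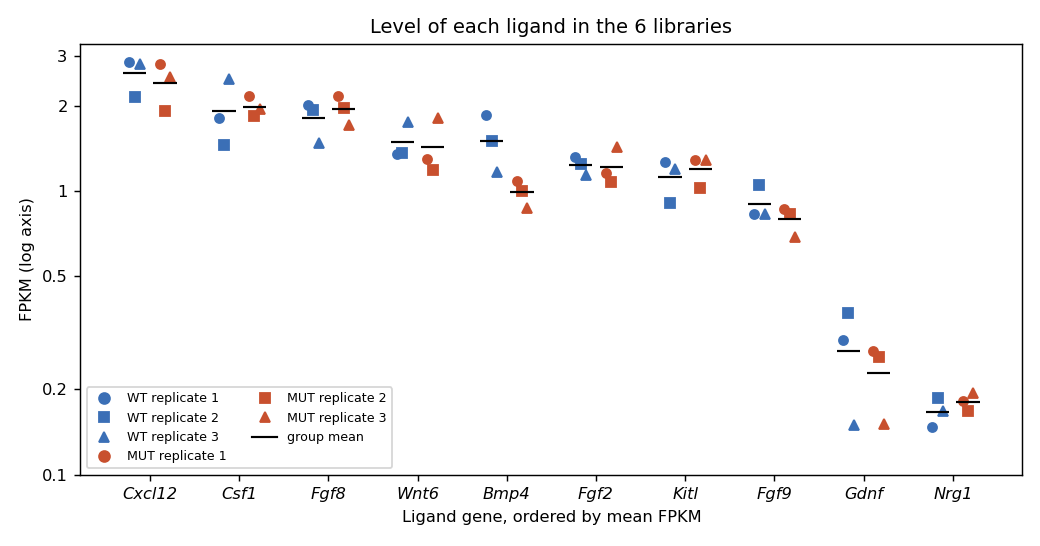
Level of each ligand gene in FPKM (log axis), with WT samples in blue on the left and MUT samples in red on the right of each gene, the marker shape giving the replicate number and the black lines the group means. The ligands run from a mean of 2.50 FPKM for *Cxcl12* to 0.174 FPKM for *Nrg1*, and only for *Bmp4* do the 3 MUT samples all lie below the 3 WT samples.

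*Gdnf* encodes glial cell line-derived neurotrophic factor, the ligand of the GFRA1 and RET receptor pair and a main self-renewal signal for spermatogonial stem cells. The gene (chr15:7810846-7837575, plus strand, GRCm38) had 25, 32 and 13 counts in WT replicates 1, 2 and 3 and 23, 22 and 13 counts in MUT replicates 1, 2 and 3. Replicate 3 was the lowest of each group, and the groups overlapped. The mean level was 0.273 ± 0.113 FPKM in WT and 0.228 ± 0.067 FPKM in MUT (SD, n = 3 each). *Gdnf* had the widest interval of the 10 ligands, with a fold of 0.837 for MUT over WT (95% confidence interval 0.453 to 1.54), and with the replicate number added the interval of its log2 fold change was -0.88 to 0.40.

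The FGF genes encode ligands of the FGF receptor tyrosine kinases. *Fgf2* (chr3:37348346-37410108, plus strand) encodes basic FGF, which is used to maintain spermatogonial stem cells in culture. It had 205, 198 and 183 counts in WT and 179, 168 and 227 counts in MUT, with the highest sample in MUT and the groups overlapping. Its log2 fold change was -0.02 (95% confidence interval -0.37 to 0.33). Of its 6782 exon bases, 640 are shared with *Nudt6* on the opposite strand and 255 with the transcript RP23-328P19.3, and fragments that fell on shared bases were not counted.

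*Fgf8* (chr19:45736798-45742915, minus strand) encodes an FGF that acts in embryonic patterning and binds FGFR1 among other receptors. It had 62, 61 and 47 counts in WT and 67, 61 and 54 counts in MUT, lowest in replicate 3 of each group, and the groups overlapped. MUT against WT gave a log2 fold change of 0.11 (95% confidence interval -0.36 to 0.58), and MUT was higher than WT in 3 of 3 pairs of the same replicate number when scaled to library size.

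*Fgf9* (chr14:58070547-58112720, plus strand) encodes an FGF that is known for its role in testis determination and in male germ cells of the fetus. It had 88, 114 and 91 counts in WT and 92, 89 and 75 counts in MUT. The highest sample was in WT and the lowest in MUT, but the ranges overlapped. Between the groups the log2 fold change was -0.18 (95% confidence interval -0.60 to 0.24).

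*Kitl* encodes KIT ligand, also called stem cell factor, which Sertoli cells present to the KIT receptor of differentiating spermatogonia. The gene (chr10:100015630-100100416, plus strand) had 171, 125 and 167 counts in WT and 174, 140 and 178 counts in MUT. Replicate 2 was the lowest of each group and the groups overlapped, with MUT above WT in 3 of 3 pairs of the same number after scaling. For *Kitl* the log2 fold change was 0.10 (95% confidence interval -0.31 to 0.51).

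*Csf1* encodes colony stimulating factor 1, the growth factor of macrophages. The gene (chr3:107741048-107760469, minus strand) had 219, 179 and 311 counts in WT and 262, 223 and 241 counts in MUT. WT held both the lowest and the highest sample, so the MUT range lay inside the WT range. The log2 fold change was 0.05 (95% confidence interval -0.40 to 0.50). In WT replicate 3, where *Csf1* was highest, the summed macrophage markers were also highest, at 673 CPM, against 435 and 482 CPM in the other WT samples. Among MUT samples *Csf1* was highest in replicate 1, where the macrophage sum was lowest, at 380 CPM against 440 and 498 CPM in the others. The part of the macrophage transcripts in the *Csf1* level was not tested.

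*Cxcl12* encodes the chemokine CXCL12 (stromal cell-derived factor), which signals through CXCR4. The gene (chr6:117168535-117181367, plus strand) had 532, 411 and 542 counts in WT and 523, 360 and 481 counts in MUT, the most counts of the 10 ligands. Replicate 2 was the lowest sample of each group, and the groups overlapped. The log2 fold change was -0.11 (95% confidence interval -0.49 to 0.27), with MUT below WT in 3 of 3 pairs of the same number after scaling. The summed stromal markers were also lowest in replicate 2 of each group, at 249 CPM in WT and 300 CPM in MUT, against 355 and 369 CPM in the other WT samples and 369 and 317 CPM in the other MUT samples. Their part in the *Cxcl12* level was not tested.

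*Wnt6* (chr1:74771892-74785322, plus strand) encodes a WNT protein, a secreted ligand of Frizzled receptors. It had 68, 70 and 91 counts in WT and 65, 60 and 93 counts in MUT, so replicate 3 was the highest sample of each group and the groups overlapped. The log2 fold change was -0.06 (95% confidence interval -0.57 to 0.45). *Nrg1* (chr8:31814551-32884029, minus strand) encodes neuregulin 1, an EGF-family ligand of ERBB3 and ERBB4. It had 35, 45 and 41 counts in WT and 43, 40 and 47 counts in MUT. The samples lay close together and the groups overlapped, with a log2 fold change of 0.12 (95% confidence interval -0.35 to 0.58). *Nrg1* shares 4.66% of its exon bases with Gm26578 on the opposite strand.

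*Bmp4* encodes bone morphogenetic protein 4, a TGF-beta family ligand that is needed for primordial germ cells in the embryo and promotes differentiation of spermatogonia. The gene (chr14:46383520-46390669, minus strand) had 95, 79 and 62 counts in WT and 56, 52 and 46 counts in MUT. All 3 MUT samples lay below all 3 WT samples, and the nearest samples were WT replicate 3 and MUT replicate 1. The level was 3.38 ± 0.766 CPM in WT and 2.22 ± 0.242 CPM in MUT (SD, n = 3 each), and MUT was lower in 3 of 3 pairs of the same number. An exact two-sided permutation test with 20 possible assignments gave p = 0.1, the smallest this design allows. The log2 fold change was -0.60 (SE 0.22, 95% confidence interval -1.11 to -0.09), a fold of 0.658 for MUT over WT. The unadjusted p was 0.0255 in edgeR and 0.0409 in DESeq2, and after Benjamini-Hochberg adjustment over the 19656 genes tested the edgeR value was 0.998, so the difference did not pass the threshold. The fold change kept its sign in every alternative fit, between -0.76 and -0.44, but the number of ligands at an unadjusted p under 0.05 was 0 in place of 1 without WT replicate 1, WT replicate 2, MUT replicate 2 or MUT replicate 3, and with DESeq2 and the replicate block. No marker list had groups that did not overlap. The spermatid markers summed to 1161, 865 and 1471 CPM in WT and 597, 626 and 1143 CPM in MUT. Like *Bmp4*, they were lower in MUT in 3 of 3 pairs of the same number. So was the sum of the 6 myoid markers, at 27.4, 24.1 and 33.5 CPM in WT and 19.5, 19.8 and 33.4 CPM in MUT. That sum followed its highest gene, *Actg2*, with 19.4, 15.3 and 23.8 CPM in WT and 10.1, 10.6 and 20.6 CPM in MUT. Of the 6 myoid markers, 4 had a log2 fold change above 0 and 2 below, so the list did not fall as a whole. Within each group the spermatid sum was highest in replicate 3, where *Bmp4* was lowest. With the replicate block 1 of the 6 spermatid markers was called lower in MUT, *Tnp1* (log2 fold change -0.63, adjusted p = 0.0794 in edgeR). Over all 19656 genes tested, that fit called 13, of which 12 were lower in MUT. Without the block 0 of the 6 were called. The 1 spermatid marker with an unadjusted p under 0.05 was then *Prm1* (log2 fold change -0.62, adjusted p = 0.998 in edgeR), against a share of 2.78% over all genes tested. *Tnp1* and *Prm1* were singled out after their values were seen. The part of these marker lists in the *Bmp4* level was not tested. *Bmp4* shares 3.96% of its exon bases with RP23-87H19.1 on the opposite strand.

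The 250 bases before the RefSeq start site (GRCm38.p6) are shown for *Bmp4*, the ligand with groups that did not overlap (chr14:46390670-46390919, minus strand), and for *Cxcl12*, the highest ligand (chr6:117168285-117168534, plus strand), written 5′ to 3′ with capitals marking the motifs found.
Bmp4: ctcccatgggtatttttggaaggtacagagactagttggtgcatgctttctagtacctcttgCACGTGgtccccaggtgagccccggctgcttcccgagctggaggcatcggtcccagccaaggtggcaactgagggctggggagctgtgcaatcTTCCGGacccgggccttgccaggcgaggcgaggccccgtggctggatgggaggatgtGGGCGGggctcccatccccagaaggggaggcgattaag
Cxcl12: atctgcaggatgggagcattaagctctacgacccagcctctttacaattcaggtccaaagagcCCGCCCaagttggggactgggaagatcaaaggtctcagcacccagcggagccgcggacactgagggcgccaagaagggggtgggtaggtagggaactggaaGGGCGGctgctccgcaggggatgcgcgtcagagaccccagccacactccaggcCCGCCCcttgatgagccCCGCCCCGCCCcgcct
The motifs searched, on both strands with overlapping matches counted, were the GC box GGGCGG, the TATA box TATAAA, the E-box CACGTG and the ETS core CCGGAA. The *Bmp4* window held 1 GC box, 1 E-box and 1 ETS core, and the *Cxcl12* window held 5 GC boxes and none of the others. Among the 32817 windows of the same length in the RefSeq table, 32.7% held the GC box, 12.4% the TATA box, 6.02% the E-box and 12.0% the ETS core. The windows had 11 CG dinucleotides in *Bmp4* and 14 in *Cxcl12*, where the median window had 6. RefSeq windows were matched for 8 of the 10 ligands, all except *Fgf8* and *Nrg1*. These matches describe the sequence and are not measured binding sites.

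**Figure D2:**
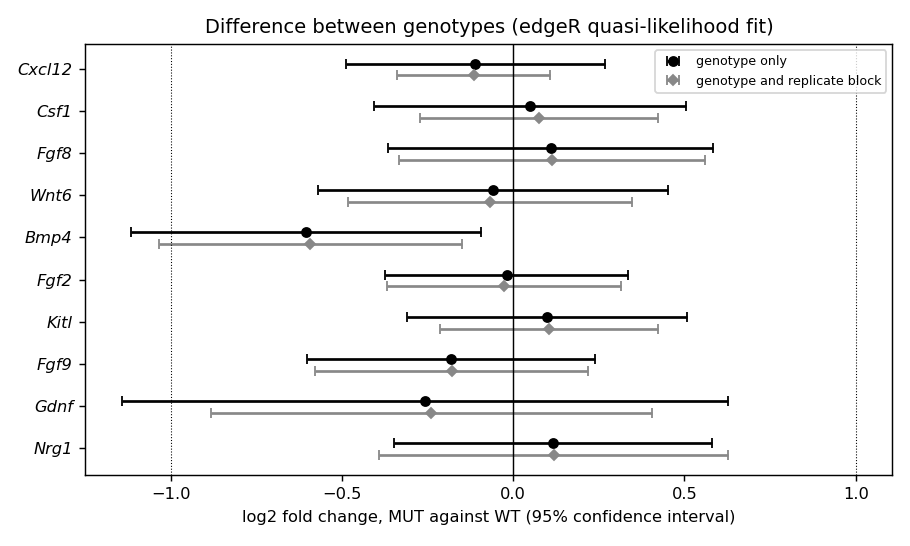
Log2 fold change of each ligand for MUT against WT with its 95% confidence interval from the edgeR quasi-likelihood fit (n = 3 per group), in black with genotype as the only term and in grey with the replicate number added; dotted lines mark a 2-fold change either way. The interval of *Bmp4*, -1.11 to -0.09, lies below 0, and the other 9 intervals include 0.

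The intervals show what size of difference the samples could still hold. For 8 of the 10 ligands the whole 95% confidence interval lay within a 2-fold change either way, compared with 81.6% of all genes tested, and the exceptions were *Gdnf* and *Bmp4*. With the replicate number added to the model, 9 of the 10 intervals lay within 2-fold, as did 17161 of the 19656 over all genes tested. The adjusted p was 0.998 for each of the 10 ligands in edgeR, and the lowest adjusted p of any ligand in any alternative fit was 0.495, for *Bmp4* with the replicate number as a block.

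Per exon length, the ligands fell into an upper set of 8 genes and a lower pair. Mean levels over the 6 samples were 2.50 ± 0.392 FPKM for *Cxcl12* (SD, n = 6), 1.95 ± 0.353 FPKM for *Csf1*, 1.87 ± 0.247 FPKM for *Fgf8*, 1.46 ± 0.258 FPKM for *Wnt6* and 1.25 ± 0.362 FPKM for *Bmp4*. They continued with 1.23 ± 0.132 FPKM for *Fgf2*, 1.16 ± 0.1597 FPKM for *Kitl* and 0.848 ± 0.115 FPKM for *Fgf9*, and then dropped to 0.251 ± 0.087 FPKM for *Gdnf* and 0.174 ± 0.017 FPKM for *Nrg1*. Of the 9 pairs of neighbours in this order, 8 had ranges over the 6 samples that overlapped. The exception was *Fgf9* and *Gdnf*, since the lowest *Fgf9* sample (0.690 FPKM) lay above the highest *Gdnf* sample (0.372 FPKM). *Cxcl12* stood at the 41.7th percentile of the mean levels of the genes tested and *Nrg1* at the 3.61st. The order was a different one by CPM, which does not divide by length, where *Fgf8* with 1350 exon bases was at rank 8 instead of 3, and *Fgf2* with 6782 exon bases was at rank 3 instead of 6. For *Nrg1*, with 10351 exon bases over all its transcripts, the length counted is that of every annotated exon together.

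The samples also differed within groups, and for several ligands in the same direction in both groups. *Cxcl12*, *Kitl* and *Csf1* were lowest in replicate 2 of each group, *Gdnf*, *Fgf8* and *Bmp4* were lowest in replicate 3 of each group, and *Wnt6* was highest in replicate 3 of each group. The spread between samples of a group exceeded counting error most for *Cxcl12*, with a chi-square per degree of freedom of 13.6, followed by *Csf1* with 9.92 and *Kitl* with 3.52. For *Nrg1* the same value was 0.375, so its samples differed no more than counting error allows. At a given relative spread this value rises with the counts, and *Cxcl12* had the most counts. The SD of log2 CPM over all 6 samples was largest for *Bmp4* (0.34) and *Gdnf* (0.33), against 0.23 for *Cxcl12*. Scaled to library size, *Gdnf* in replicate 3 was 0.549 CPM in WT and 0.556 CPM in MUT, while the other samples had 0.954 to 1.37 CPM.

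**Figure D3:**
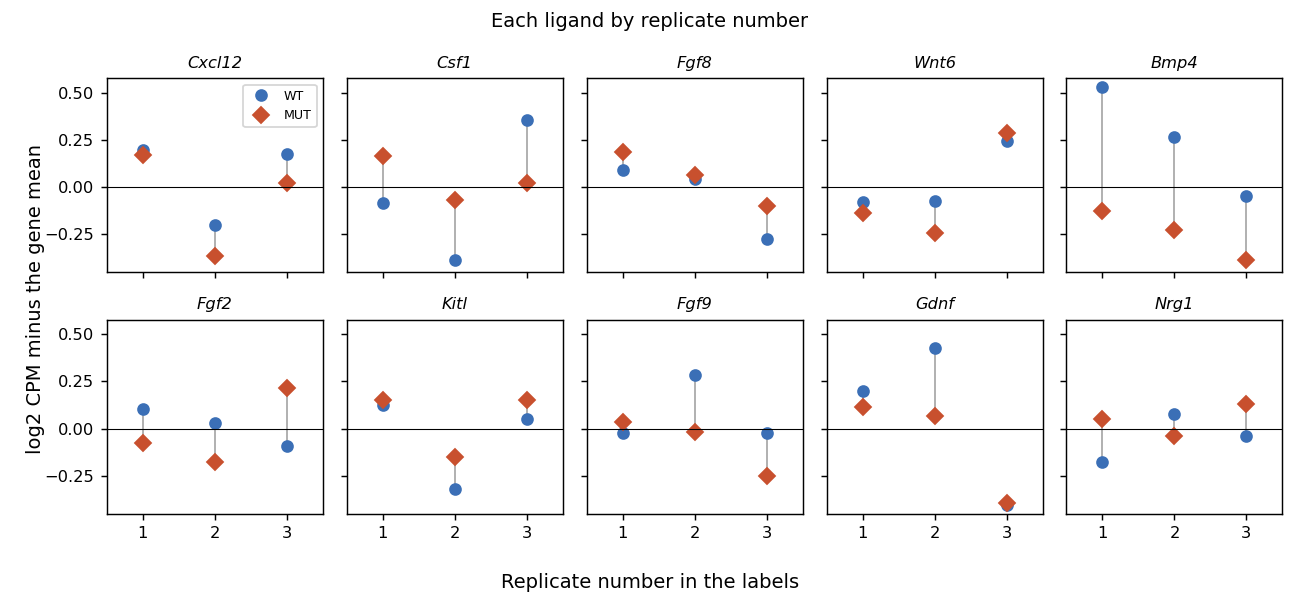
Level of each ligand as deviation of its log2 CPM from the average of all 6 samples, plotted against the replicate number in the labels, with WT as blue circles, MUT as red diamonds and a grey line joining samples of the same number. *Cxcl12*, *Kitl* and *Csf1* are lowest at number 2 in both groups and *Gdnf* at number 3, and for *Bmp4* the MUT sample lies below the WT sample at each number.

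Most receptors that bind these ligands were higher per exon length than their ligands in the same libraries. *Ret* averaged 52.0 FPKM and *Gfra1* 23.0 FPKM, so per exon length *Ret* was 154 to 294 times and *Gfra1* 71.8 to 138 times the *Gdnf* level across the 6 samples. *Kit* averaged 18.1 FPKM, 11.6 to 24.7 times *Kitl*. *Csf1r*, the receptor of CSF1 and a macrophage gene, averaged 40.3 FPKM, 14.0 to 27.1 times *Csf1*. *Cxcr4* averaged 10.8 FPKM, 3.28 to 5.82 times *Cxcl12*, whereas the scavenging receptor *Ackr3* averaged 1.10 FPKM, below *Cxcl12* in every sample.

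Among the FGF receptors, *Fgfr1* was the highest at a mean of 10.7 FPKM, followed by *Fgfr3* at 3.14 FPKM, *Fgfr2* at 0.753 FPKM and *Fgfr4* at 0.572 FPKM. *Fgfr1* was 7.50 to 9.69 times *Fgf2* and 5.15 to 6.65 times *Fgf8*. *Fgfr2* and *Fgfr4* lay below *Fgf2* in every sample, at 0.551 to 0.671 and 0.385 to 0.741 times its level. Against *Fgf9*, *Fgfr2* was 0.731 to 1.28 times the level. For NRG1, *Erbb2*, the co-receptor that binds no ligand of its own, averaged 13.7 FPKM and *Erbb3* averaged 8.26 FPKM, while *Erbb4* averaged 0.0725 FPKM and lay below *Nrg1* in every sample. For BMP4, the type I receptor *Bmpr1a* averaged 20.6 FPKM, 11.3 to 22.4 times *Bmp4*, against 1.604 FPKM for *Bmpr1b* and 3.97 FPKM for the type II receptor *Bmpr2*. *Bmpr1b* was 0.917 to 1.92 times *Bmp4*. Ratios of transcript levels per length say nothing of protein.

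**Figure D4:**
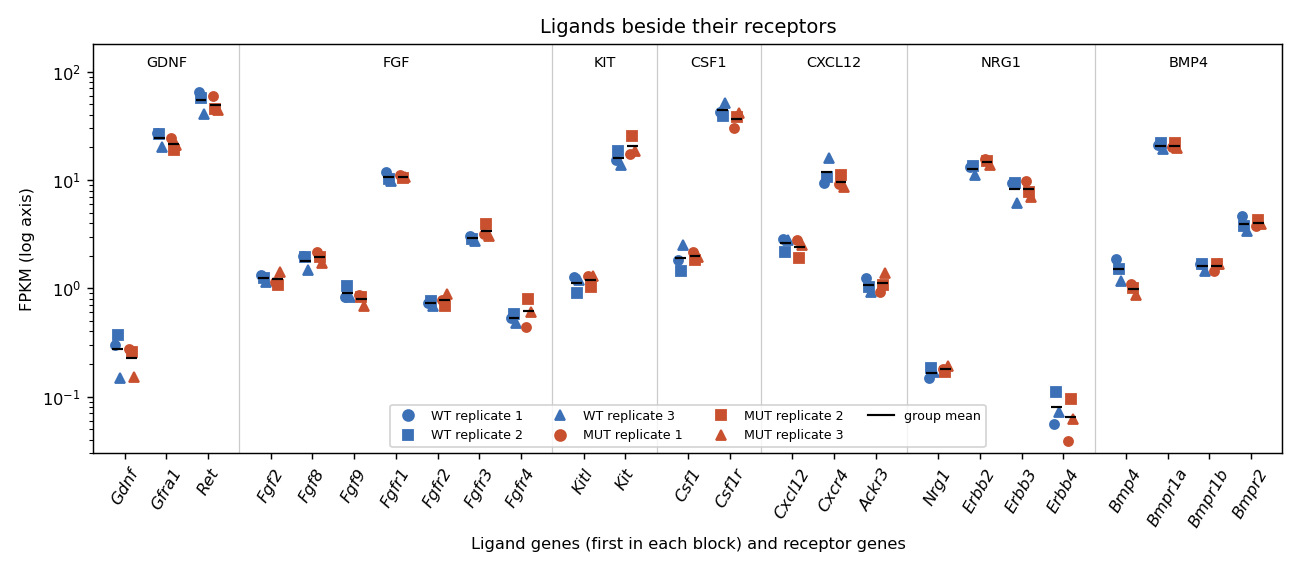
Level in FPKM (log axis) of 9 of the ligand genes and the receptors that bind them, grouped by pathway, with WT in blue and MUT in red, marker shape for the replicate number and black lines for group means (*Wnt6* and the Frizzled genes are not drawn). *Gdnf*, near 0.25 FPKM, stands far below *Gfra1* and *Ret*, and *Ackr3* and *Erbb4* lie below *Cxcl12* and *Nrg1* in each sample. *Fgfr2* and *Fgfr4* lie below *Fgf2* in each sample.

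No receptor differed past the threshold either. Of the 31 receptors and co-receptors tested, including the Frizzled and activin receptors, edgeR called 0, and 2 had an unadjusted p under 0.05, both higher in MUT, where the share over all genes tested was 2.78%. *Kit*, a marker of differentiating spermatogonia, had 15.2, 18.6 and 13.9 FPKM in WT and 17.4, 25.4 and 18.4 FPKM in MUT. The groups overlapped, and MUT was higher in 3 of 3 pairs of the same number (log2 fold change 0.36, unadjusted p = 0.0497 in edgeR, adjusted p = 0.998). *Erbb2* had 13.3, 13.6 and 11.0 FPKM in WT and 15.5, 14.9 and 13.7 FPKM in MUT, with all MUT samples above the WT samples (log2 fold change 0.22, unadjusted p = 0.0481 in edgeR, adjusted p = 0.998). *Fgfr3* and *Acvr1* were the other receptors whose groups did not overlap, also higher in MUT, with log2 fold changes of 0.23 and 0.24, and both were chosen after their values were seen; these 3 receptors compare with 4.69% of all genes tested. The number of receptors at an unadjusted p under 0.05 was 0 without MUT replicate 2, with DESeq2 size factors or with at least 10 counts in each sample, 1 without WT replicate 1, and 4 without MUT replicate 3. With the replicate block it was 3, and the addition was *Csf1r*, which was lower in MUT in 3 of 3 pairs of the same number (log2 fold change -0.28, unadjusted p = 0.0118 and adjusted p = 0.478 in edgeR). Over all genes tested, an unadjusted p under 0.05 was held by 1297 of 19656 with the block and by 1736 of 20085 without MUT replicate 3. It was held by 292 of 20260 without MUT replicate 2 and by 580 of 20198 without WT replicate 1, so the number over all genes moved as well. The median log2 fold change of the receptors was 0.02. The receptors of BMP4 had log2 fold changes of -0.0012 for *Bmpr1a*, -0.01 for *Bmpr1b* and 0.02 for *Bmpr2*.

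Other ligands of the same families did not differ past the threshold either. Of 62 such genes, 60 had at least 1 count, *Csf2* and *Bmp10* had 0 counts in all 6 libraries, and 35 passed the filter for testing. The highest were *Bmp7* at a mean of 13.8 FPKM, *Nrtn*, a GDNF-family ligand, at 4.88 FPKM, and *Wnt5b* at 4.604 FPKM, each above all 10 niche ligands. In edgeR 0 of the 35 were called, and 1 had an unadjusted p under 0.05, near the share of 2.78% over all genes tested. That number was 0 with DESeq2 and without WT replicate 1, WT replicate 2, MUT replicate 1 or MUT replicate 2, and 2 without WT replicate 3 or MUT replicate 3. Over all genes tested it was 729 of 20086 without WT replicate 3, 1736 of 20085 without MUT replicate 3 and 292 of 20260 without MUT replicate 2. The 1 family ligand of the edgeR fit was *Fgf7*, keratinocyte growth factor, with 3, 5 and 10 counts in WT and 20, 13 and 10 counts in MUT (log2 fold change 1.26, SE 0.48, adjusted p = 0.998). Its counts are few, and WT replicate 3 and MUT replicate 3 had equal counts. Of 20 further testis signals, 18 were tested and 0 were called. *Ccl2* (mean 20.01 FPKM), *Pdgfa* (15.0 FPKM) and *Pdgfb* (14.1 FPKM) were the highest, and *Rspo1*, a WNT enhancer, was the 1 gene with an unadjusted p under 0.05 (0 without WT replicate 2, MUT replicate 1 or MUT replicate 3, and 2 genes without WT replicate 3), with 155, 112 and 116 counts in WT and 176, 162 and 175 counts in MUT (log2 fold change 0.43, adjusted p = 0.998).

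Among the cell types known to make these ligands, markers of Sertoli, myoid and Leydig cells were lower than those of macrophages and stroma. The 8 Sertoli cell markers summed to 54.0 to 134 CPM in WT and 79.9 to 113 CPM in MUT. Their highest genes were *Clu* (mean 20.3 FPKM) and *Aard* (4.13 FPKM), and *Fshr*, the defining receptor, chosen here after its values were seen, had only 2 to 5 counts in each library. *Wt1*, a transcription factor gene of Sertoli cells, also chosen after its values were seen, had 242, 242 and 259 counts in WT and 293, 381 and 271 counts in MUT, with all MUT samples above the WT samples (log2 fold change 0.36, unadjusted p = 0.0428 and adjusted p = 0.998 in edgeR). The shares over all genes tested were 2.78% for such a p and 4.69% for such a separation. The groups overlapped for every other Sertoli marker. Of the 7 tested, 5 had a log2 fold change above 0 and 2 below, with a median of 0.06. The 6 peritubular myoid markers, led by *Actg2* (10.7 FPKM) and *Acta2* (0.964 FPKM), summed to 24.1 to 33.5 CPM in WT and 19.5 to 33.4 CPM in MUT. The 6 Leydig markers, led by *Cyp17a1* (2.49 FPKM) and *Star* (2.47 FPKM), summed to 13.2, 20.6 and 21.1 CPM in WT and 12.9, 13.5 and 67.3 CPM in MUT. MUT replicate 3 thus stood apart, and all 6 Leydig markers were highest there; without this sample the ligands had 0 calls as before.

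Vascular and lymphatic markers were low as well. The 7 endothelial markers, led by *Cdh5* (3.81 FPKM) and *Cldn5* (1.94 FPKM), summed to 62.5 to 81.2 CPM in WT and 62.2 to 75.4 CPM in MUT. The 4 lymphatic markers, led by *Lyve1* (1.61 FPKM) and *Prox1* (0.292 FPKM), summed to 8.42 to 9.42 CPM over the 6 libraries, with *Ccl21a* at 0 counts in each. The 6 meiotic markers, led by *Tex101* (99.8 FPKM) and *Sycp3* (63.9 FPKM), summed to 460 to 716 CPM in WT and 565 to 581 CPM in MUT. The 10 ligands together summed to 56.2 to 65.6 CPM in WT and 52.7 to 64.9 CPM in MUT and, like each marker list, overlapped between the groups. Which cells of the sorted mixture the ligand transcripts came from was not tested.

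**Figure D5:**
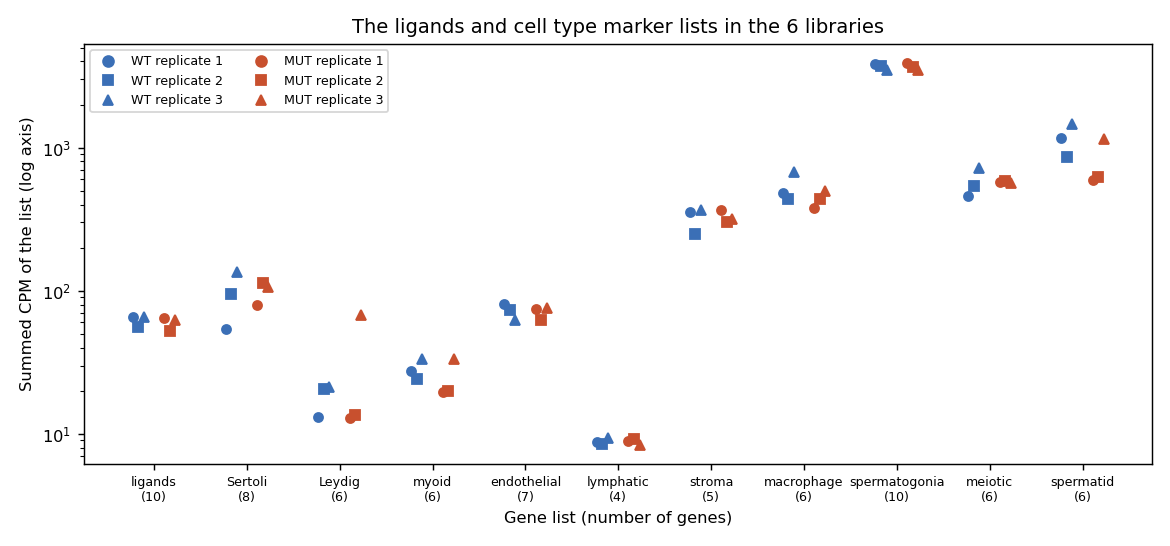
Summed CPM (log axis) of the 10 ligands and of each cell type marker list in the 6 libraries, WT in blue and MUT in red with marker shape for the replicate number. Spermatogonial markers are the highest list, at 3474 to 3898 CPM, all lists overlap between the groups, and MUT replicate 3 stands apart for the Leydig list at 67.3 CPM.

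The genes whose pattern over the 6 samples lay closest to a ligand were searched among 19646 genes, by the root mean square difference (RMS) of log2 CPM centred on each gene's mean. The closest was *Papd7* to *Fgf8* (RMS 0.0145), followed by *Kif21a* to *Nrg1* (RMS 0.0152) and *Zfp454* to *Fgf2* (RMS 0.0197). *Kitl* was nearest to RP23-356K2.5 (RMS 0.0317) and then *Tgfbr3* (RMS 0.0491), *Cxcl12* to *H2-T10* (RMS 0.0372), and *Fgf9* to RP24-270A10.2 (RMS 0.0428). *Csf1* was nearest to *Mmp23* (RMS 0.0582) and *Vegfc* (RMS 0.0621), and *Bmp4* to *Alox15* (RMS 0.0665). These values describe 6 samples only, and with so many genes searched some lie close to any pattern. *Gdnf*, at a mean under 1 CPM, was not searched.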

How the data were processed

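RNA of sorted cells from 3 WT and 3 MUT mice was sequenced from both ends after stranded poly-A library preparation, and groups were taken from the sample titles. The authors deposited raw fragment counts per gene for each sample, counted by featureCounts 1.6.2 over GENCODE vM17 exons (GRCm38), without regard to strand and without fragments that matched several places or genes. The submitters' notes name FastQC and STAR. Counts were not normalized and replicates not pooled.

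Counts of the 6 samples were merged on the gene name. In R 4.3.3, edgeR 4.0.16 scaled libraries by TMM, filterByExpr kept 19656 genes including all 10 ligands, and the quasi-likelihood test compared MUT with WT at an FDR of 0.1. The study's tool, DESeq2 (1.42.0 here), limma 3.58.1 with voom, DESeq2 size factors, no filter, a minimum of 10 counts, an FDR of 0.05, the replicate block and each sample left out were alternatives. FPKM used TMM-scaled libraries and the exon lengths of the files. Single values had an exact permutation test, whose smallest p is 0.1. P-values measure the spread between 3 mice per group, and limits from counts cover counting error only. The edgeR test was tried on simulated counts. The changed genes were drawn at random from genes of all levels, and 195, 197 and 192 of them were tested at the 3 folds. That is far more than the 2 genes called in the data, and the ligands all lie below the median level. Recovery at the levels of the ligands was not tested. It recovered 62 genes (31.8%) changed 1.5-fold, 135 (68.5%) changed 2-fold and 182 (94.8%) changed 4-fold. False calls beside these numbered 14, 23 and 24, at each fold a larger share of the calls than the FDR of 0.1. No pair of replicates was a library counted again (chi-square per degree of freedom 3.20 to 16.8).

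Both groups carry numbers 1 to 3. Deviations of same-numbered samples from their group means, over 10583 genes above 10 CPM, correlated at 0.313, 0.174 and 0.394. All were above 0.1, so the numbers were taken to pair the samples. WT replicate 2 with MUT replicate 1 had 0.323, above 0.313 and 0.174. Deviations within a group are not independent either, so the check cannot establish the pairs. Results by pair or with the replicate block carry this limit. The pairing rests on this check, since the study says that controls were littermates but not of which mice.

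The ligands and gene lists were chosen with earlier results of these data known. Genes named were the ligands, *Hras*, the receptors that bind a ligand, receptors, family ligands and other signals with an unadjusted p under 0.05, the highest genes of each list except the receptors, genes at 0, and those closest in pattern to a ligand; the closest gene to *Wnt6* is not reported here. Promoter windows came from RefSeq (GRCm38.p6).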

Additional observations from a re-analysis of the deposited data

How the results depend on the processing

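The count of ligands called was 0 in every alternative, as were the counts of receptors, family ligands and other testis signals. The count over all genes was 2 in the edgeR fit, both lower in MUT, and 13 with the replicate block (1 higher, 12 lower). It was 9 with DESeq2, 17 with DESeq2 without Cook's filter, 55 with DESeq2 and the replicate block, 4 with limma voom, 5 with no filter, 1 at an FDR of 0.05, and 0 in edgeR when each sample needed 10 counts or more (479 genes at an unadjusted p under 0.05). Leaving out 1 sample gave 0 to 6 genes: 5 without WT replicate 3, 1 without MUT replicate 1, 0 without MUT replicate 2 (292 at an unadjusted p under 0.05) and 6 without MUT replicate 3 (1736 at such a p). The cause was not tested. The replicate block changed no call of a ligand; for *Bmp4* it gave a log2 fold change of -0.59 with an adjusted p of 0.495.

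Of 140 log2 fold changes of ligands under alternatives, 128 kept their sign, and *Fgf9*, *Nrg1* and *Bmp4* (3 ligands) never changed it. The 12 that reversed all came from leaving out a sample, and none was past the threshold. With 1 sample left out, *Gdnf* ranged from -0.55 to 0.019, *Fgf2* from -0.15 to 0.051, *Fgf8* from -0.017 to 0.20 and *Kitl* from -0.047 to 0.19. *Csf1* ranged from -0.13 to 0.28, *Cxcl12* from -0.24 to 0.018 and *Wnt6* from -0.26 to 0.075. The order of levels was the same with DESeq2 size factors and with TPM, and the neighbours that did not overlap numbered 1 to 2 when 1 sample was left out, with 2 without WT replicate 2. Depth limits *Gdnf* most, at 13 to 32 counts per library.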
